A study of Homo sapiens with 16 samples.

Results

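Fatty acid synthesis and elongation was followed through 10 genes, FASN, ACACA, ACLY, SCD, ELOVL1, ELOVL5, ELOVL6, ELOVL7, FADS1 and FADS2, which were picked by symbol from the 20531 entries of the count table. All 10 were found once and all 10 passed the filter on low counts. The cells were LNCaP, a line derived from a human prostate cancer that responds to androgen. They were transfected with 40 nM siRNA for 24 h and then kept for another 24 h in serum-free medium. The NS groups received a nonsense control siRNA and the SLIRP groups received a pool of siRNAs against SLIRP, an RNA-binding coregulator of nuclear receptors. NS-Veh and SLIRP-Veh cells had ethanol vehicle, and NS-DHT and SLIRP-DHT cells had 1 nM of the androgen dihydrotestosterone (DHT). Each of these 4 groups had 4 libraries, so that all 16 libraries came from 1 cell line, transfected cells and medium without serum, and no untransfected cells were analysed here. The question was how the mRNAs of these enzymes responded to SLIRP siRNA, to DHT, and to DHT once SLIRP was lowered.

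Fatty acids are built in the cytosol from acetyl-CoA, which ATP citrate lyase (ACLY) releases from citrate. Acetyl-CoA carboxylase (ACACA) turns it into malonyl-CoA, the committed step, and fatty acid synthase (FASN) joins these units into palmitate. Stearoyl-CoA desaturase (SCD) then makes monounsaturated fatty acids, the ELOVL elongases lengthen acyl chains in the endoplasmic reticulum, and FADS1 and FADS2 desaturate polyunsaturated chains. Androgens are known inducers of lipogenic enzymes in prostate cancer cells, largely together with the SREBP transcription factors.

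Library totals ranged from 436353 to 1689708 estimated counts. SLIRP, listed under its former symbol C14orf156, lay between 44.7 and 62.9 CPM (counts per 1000000 after TMM scaling) in the 8 NS libraries and between 1.40 and 7.98 CPM in the 8 SLIRP libraries. KLK3, the androgen target that encodes PSA, had a mean of 39.1 CPM (SD 13.6, n = 4) without and 286 CPM (SD 43.5, n = 4) with DHT in NS cells. All 10 markers of luminal prostate epithelium were detected, and KRT5, TP63, PTPRC, CD3E, PECAM1, CDH5 and DCN were at 0 counts in all 16 libraries. The summed level of the luminal markers was 4081 to 4785 CPM in NS libraries and 2972 to 3661 CPM in SLIRP libraries, so it moved with every comparison of siRNAs made here, and in SLIRP cells also with DHT (2972 to 3129 against 3331 to 3661 CPM), and its part in those results was not tested. In bulk RNA, fewer cells of a kind and less RNA per cell cannot be told apart. Fold changes are on the log2 scale with their standard error (SE), and a gene was called at an edgeR false discovery rate (FDR) under 0.01 over all genes tested. The luminal markers did not all move with their sum, in which FOLH1 alone was 1005 to 2134 CPM. With SLIRP siRNA in vehicle 6 of the 10 were called lower and 1, KLK3, higher at 1.11 (SE 0.16, edgeR FDR 1.04e-06). In DHT 6 were lower and 3 higher. Of all genes tested, 21.7% were called in vehicle and 24.4% in DHT. The text of the study gives replicates from 2 experiments, so the tests measure the spread among these libraries, part of which may be technical.

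The enzymes did not move as a block with SLIRP siRNA. Across 8 SLIRP and 8 NS libraries, SCD, ACACA, ACLY and FADS2 were lower, FADS1 and ELOVL6 were higher, and FASN, ELOVL1, ELOVL5 and ELOVL7 did not pass the test. The 4 lower members were 40% of the set, against 17.4% of the 10167 genes tested that were called lower, and the 2 higher members were 20%, against 17.8% called higher, so the share of higher members was near that of all genes. Members differed from most genes in depth, with SCD ranked 8, FASN 33, FADS2 70 and ELOVL5 190 by mean count, although ELOVL7 was ranked 5153. They were also chosen with earlier results of these data known, so their shares are no test of enrichment. The median log2 fold change was -0.026 over the 10 members and -0.015 over all genes tested. Beside these, SCD and FADS1 were the 2 members whose 8 SLIRP libraries did not overlap the 8 NS libraries, against 14.6% of genes. In vehicle alone, 3 members were lower and 1 higher, where 9.95% of the 10684 genes tested were called lower and 11.8% higher, and 5 members had groups that did not overlap, against 29.3% of genes. In DHT alone, 4 members were lower and 2 higher, where 11.6% of genes were called lower and 12.8% higher, and 7 members had groups that did not overlap, against 32.2% of genes. In either direction, 21.7% of genes were called in vehicle and 24.4% in DHT. With the deposited normalized table in limma, the share of calls in DHT that were higher was 41.9%, against 52.6% in edgeR.

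With DHT, the calls among the members were all higher. With NS siRNA, ELOVL5 and ELOVL7 rose, the other 8 members did not pass the test, and all 10 log2 fold changes were above 0 under TMM and the other scalings tried, although FASN was -0.040 with only replicates 3 and 4, with a median of 0.24 against 0.0085 over all genes tested. The 2 members called were 20% of the set, while 0.777% of the 10684 genes tested were called higher, 0.309% lower and 1.09% in either direction. The set holds lipogenic enzymes, of which androgens are known inducers, and was chosen with earlier results of these data known. Its shares with DHT are therefore no test of enrichment. The DHT and vehicle libraries of 5 members did not overlap, against 8.66% of genes. With SLIRP siRNA, ELOVL5, ELOVL7, ACLY and FADS1 rose, which was 40% of the set against 0.636% of genes called higher, 0.534% lower and 1.17% in either direction, and the median was 0.25 against -0.0011 over all genes tested. The libraries of 6 members did not overlap, against 8.39% of genes. All 10 log2 fold changes were again above 0, except that of ELOVL1, which was -0.021 in limma on the normalized table and -0.21 with only replicates 1 and 2. No member was called lower with DHT under either siRNA. Calls in DHT with SLIRP siRNA were 54.4% higher with TMM and 41.3% higher with upper-quartile scaling, under which 2 members were called in place of 4. The DHT comparisons under NS and SLIRP siRNA share no libraries with each other. Each shares its vehicle group with the comparison of siRNAs in vehicle and its DHT group with that in DHT.

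**Figure D1:**
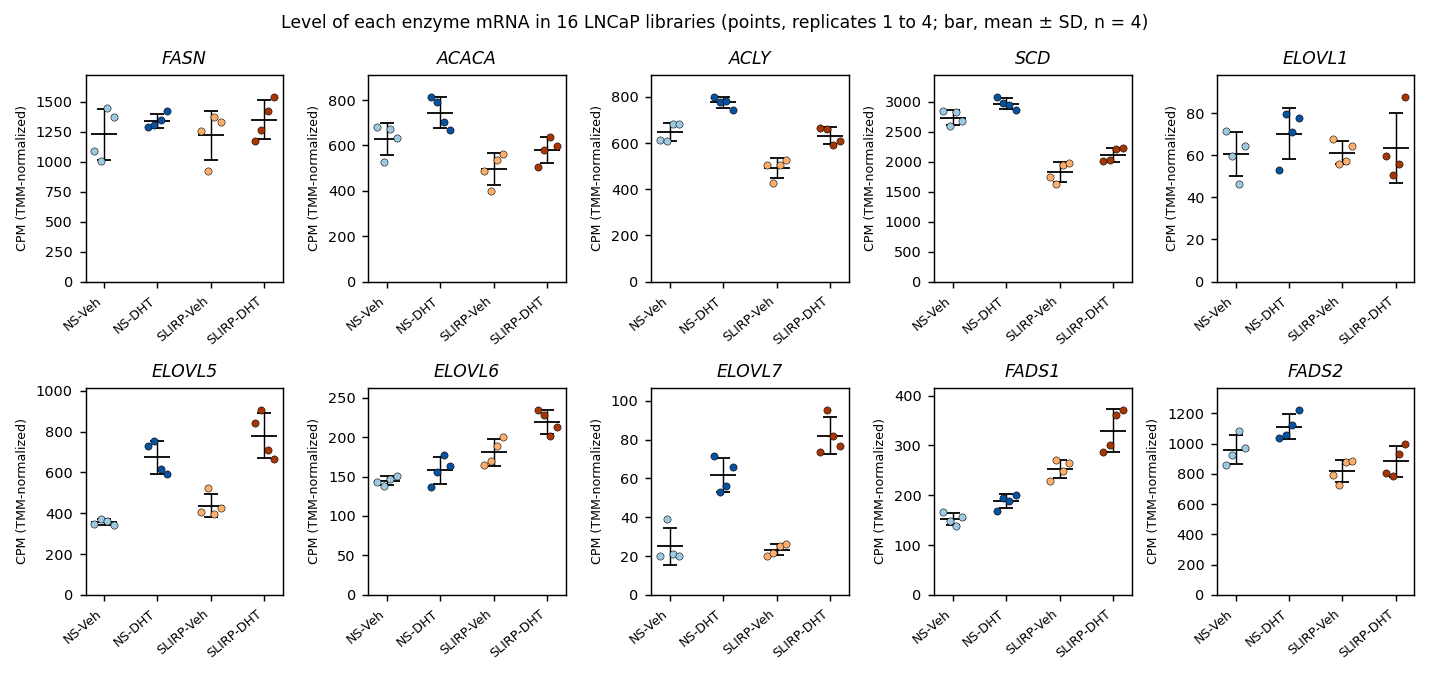
CPM of each of the 10 mRNAs (vertical axes, from 0) in NS-Veh, NS-DHT, SLIRP-Veh and SLIRP-DHT, with 1 point per library and the mean ± SD (n = 4) as bars. ELOVL5 and ELOVL7 are higher in both DHT groups, SCD is lower in both SLIRP groups and FADS1 is higher in both, while FASN overlaps among all 4 groups.

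Levels were compared between genes per kb of the canonical GENCODE transcript, a length the authors' counting may not have used. In NS-Veh the order was SCD (522 CPM per kb), FADS2 (311 CPM per kb), ACLY (151 CPM per kb), FASN (145 CPM per kb), ELOVL5 (129 CPM per kb), ACACA (62.8 CPM per kb), ELOVL1 (41.3 CPM per kb), FADS1 (between 31.7 and 38.2 CPM per kb), ELOVL6 (22.01 CPM per kb) and ELOVL7 (6.44 CPM per kb). SCD and FADS2 were separated from each other and from the rest, while the libraries of ACLY and FASN, of FASN and ELOVL5, and of ELOVL1 and FADS1 overlapped. SCD stood first and ELOVL7 last in all 4 groups. In SLIRP-DHT, ELOVL5 reached 282 CPM per kb, where its libraries overlapped those of FADS2 at 286 CPM per kb, and FADS1 reached 75.6 CPM per kb, above ACACA at 58.0 CPM per kb with no overlap. In SLIRP-Veh the same order held with overlap, and in NS-DHT FADS1 was 43.1 CPM per kb and ACACA 74.5 CPM per kb, the opposite order.

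**Figure D2:**
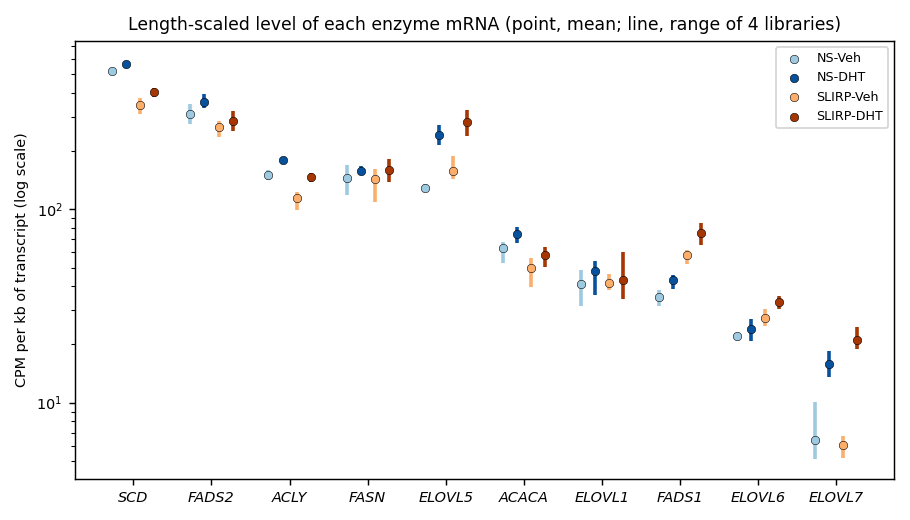
CPM per kb of canonical transcript (log axis) for the 10 mRNAs, ordered by their mean in NS-Veh, with points for the mean and lines for the range of 4 libraries in each group. SCD is the highest and ELOVL7 the lowest in every group, and FADS1 lies below ACACA in NS-DHT and above it in SLIRP-DHT, where the ranges do not overlap.

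ACLY and ACACA, the enzymes that supply acetyl-CoA and malonyl-CoA, were lower with SLIRP siRNA in vehicle and in DHT. ACLY (Entrez 47, hg19 chromosome 17, 40023170 to 40086795) was 615, 611, 680.4 and 684 CPM in NS-Veh replicates 1 to 4 and 507, 427, 506 and 525 CPM in SLIRP-Veh. With DHT, ACLY was 801, 778, 780.2 and 745 CPM under NS siRNA and 664, 662, 593 and 610.5 CPM with SLIRP siRNA. All 4 SLIRP libraries were below all 4 NS libraries under each condition. The log2 fold change was -0.40 (SE 0.076, edgeR FDR 6.82e-05) in vehicle and -0.30 (SE 0.073, edgeR FDR 0.00134) in DHT. About 3.63% of the bases of its canonical transcript are shared with exons of an antisense lncRNA, and the strand of counting is not given in the sources used here. ACACA (Entrez 31, chromosome 17, 35441927 to 35766927) was 682, 528, 671 and 631 CPM in NS-Veh and 487, 399, 535 and 561 CPM in SLIRP-Veh. In DHT it was 815, 792, 703 and 670.1 CPM with NS siRNA and 505, 579.6, 639 and 598 CPM with SLIRP siRNA. The groups were separated in DHT, while in vehicle NS-Veh replicate 2 lay among the SLIRP libraries. The log2 fold change of ACACA was -0.35 (SE 0.094, edgeR FDR 0.00397) in vehicle and -0.36 (SE 0.090, edgeR FDR 0.00192) in DHT. Within replicates 1 and 2 it was -0.41 in vehicle and -0.55 in DHT, and within replicates 3 and 4 it was -0.26 (edgeR FDR 0.0155) and -0.15 (edgeR FDR 0.188), so that both calls were lost in the latter. Both calls were also lost in limma on the normalized table, with an FDR of 0.0351 in vehicle and 0.0127 in DHT at a pseudocount of 1. They were lost as well, in vehicle, without NS-Veh replicate 1, 3 or 4 or SLIRP-Veh replicate 1 or 2 and, in DHT, without NS-DHT replicate 1 or 2 or SLIRP-DHT replicate 1, where the FDR rose to at most 0.0328 in vehicle and, with every library of replicate number 1 left out, to 0.06 in DHT.

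FASN (Entrez 2194, chromosome 17, 80036214 to 80056170), the multienzyme that makes palmitate, was not called in any of the comparisons made. Its mean ± SD over 4 libraries was 1228 ± 212 CPM in NS-Veh, 1339.9 ± 57.1 CPM in NS-DHT, 1219 ± 204 CPM in SLIRP-Veh and 1349.8 ± 163 CPM in SLIRP-DHT. The lowest library was SLIRP-Veh replicate 2 at 922 CPM and the highest SLIRP-DHT replicate 4 at 1540 CPM, and all 4 groups overlapped. Its log2 fold change with SLIRP siRNA had a 95% interval of -0.22 to 0.17 in vehicle and of -0.18 to 0.21 in DHT. With DHT the interval was -0.087 to 0.30 in NS cells and -0.049 to 0.34 in SLIRP cells. The change of ACLY with SLIRP siRNA was -0.40 (95% interval -0.55 to -0.25) in vehicle and -0.30 (95% interval -0.44 to -0.16) in DHT. These intervals were separate from that of FASN in vehicle and overlapped it in DHT, and the difference between the genes was not tested. With DHT, ACLY changed by 0.25 (SE 0.074, edgeR FDR 0.0677) in NS cells and by 0.35 (SE 0.076, edgeR FDR 0.00444) in SLIRP cells, and its DHT libraries were all above its vehicle libraries under both siRNAs. The call in SLIRP cells was lost with upper-quartile scaling (FDR 0.01), with only the SLIRP groups in the fit (FDR 0.0209), in limma (FDR 0.0801) and without SLIRP-DHT replicate 1 or 2 or SLIRP-Veh replicate 2. It was also lost with the libraries of any single replicate number left out (FDR 0.0101 to 0.0681) and with only replicates 3 and 4 (FDR 0.173). ACACA changed by 0.23 (SE 0.091, edgeR FDR 0.22) and 0.22 (SE 0.093, edgeR FDR 0.216) with DHT, with overlapping libraries under both siRNAs.

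SCD, which places the first double bond into saturated acyl chains, had the largest fall of the set with SLIRP siRNA. SCD (Entrez 6319, chromosome 10, 102106990 to 102124583) was 2842, 2597, 2827 and 2679 CPM in NS-Veh and 1747, 1624, 1951 and 1983 CPM in SLIRP-Veh. The DHT groups were at 3085, 2986, 2954 and 2859.7 CPM with NS siRNA and 2009, 2029.9, 2204 and 2237 CPM with SLIRP siRNA. All 8 SLIRP libraries lay below all 8 NS libraries. The level was 1.499-fold lower in vehicle, with a log2 fold change of -0.58 (SE 0.068, edgeR FDR 1.20e-08), and 1.40-fold lower in DHT, with -0.49 (SE 0.067, edgeR FDR 3.14e-07). Over the alternatives tried for the 8 against 8 libraries the log2 fold change stayed between -0.64 and -0.43. With DHT, SCD changed by 0.12 (SE 0.067, edgeR FDR 0.498) in NS cells and by 0.21 (SE 0.068, edgeR FDR 0.0745) in SLIRP cells, and the DHT libraries were above the vehicle libraries in both. DESeq2 gave the latter an FDR of 0.00529.

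FADS1 and FADS2, the desaturases of polyunsaturated fatty acid synthesis, moved in opposite directions with SLIRP siRNA. FADS1 (Entrez 3992, chromosome 11, 61567099 to 61596790) was 167, 149, 138 and 157 CPM in NS-Veh and 228, 270.2, 248 and 264 CPM in SLIRP-Veh. In DHT it was 168, 195, 189 and 200.2 CPM with NS siRNA and 286, 301, 361 and 371 CPM with SLIRP siRNA. All 8 SLIRP libraries lay above all 8 NS libraries. The rise was 1.66-fold in vehicle, with a log2 fold change of 0.73 (SE 0.10, edgeR FDR 6.63e-07), and 1.76-fold in DHT, with 0.82 (SE 0.094, edgeR FDR 8.46e-09). FADS2 (Entrez 9415, chromosome 11, 61560452 to 61634826) was 857, 926, 1083 and 973 CPM in NS-Veh and 791, 729.8, 879 and 883 CPM in SLIRP-Veh. In DHT it was 1038, 1061, 1126 and 1223 CPM with NS siRNA and 808, 787, 935 and 1001 CPM with SLIRP siRNA. The groups were separated in DHT and overlapped in vehicle. FADS2 changed by -0.24 (SE 0.084, edgeR FDR 0.0291) in vehicle, which was not called, and by -0.33 (SE 0.082, edgeR FDR 0.00165) in DHT. In vehicle it was called with the replicate number as a block (edgeR FDR 0.00546). A term that set replicates 1 and 2 against 3 and 4 also called it (edgeR FDR 0.00412). The call in DHT was lost in limma at a pseudocount of 1 (FDR 0.0116) and without NS-DHT replicate 4 or SLIRP-DHT replicate 1 or 2, where the FDR rose to at most 0.0197.

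The FADS genes lie next to each other on opposite strands, and in the GENCODE annotation their spans overlap. The canonical transcripts share 142 bases of FADS1 exons and 148 bases of FADS2 exons with the other gene, 3.25% and 4.79% of their lengths, so reads there could not be assigned without strand. The ratio within a library was given by the FADS1 level for each 100 CPM of FADS2. This ratio, looked at after its parts were seen and given with no test, had a mean ± SD over 4 libraries of 16.1 ± 2.73 in NS-Veh and 16.95 ± 0.99 in NS-DHT, against 30.99 ± 4.08 in SLIRP-Veh and 37.4 ± 1.45 in SLIRP-DHT. The highest NS library had a ratio of 19.4 and the lowest SLIRP library one of 28.2. With DHT, FADS1 changed by 0.32 (SE 0.10, edgeR FDR 0.11) in NS cells and by 0.41 (SE 0.093, edgeR FDR 0.00844) in SLIRP cells. The latter call was lost with upper-quartile scaling (FDR 0.0158), with only the SLIRP groups in the fit (FDR 0.0256), in limma (FDR 0.127) and without NS-Veh replicate 3 or 4, SLIRP-Veh replicate 1, 3 or 4 or SLIRP-DHT replicate 3 or 4. It was also lost without the libraries of number 1, 3 or 4 (FDR 0.0335, 0.101 and 0.0734) and with only replicates 1 and 2 (FDR 0.352). FADS2 changed by 0.20 (SE 0.083, edgeR FDR 0.258) and 0.11 (SE 0.084, edgeR FDR 0.58) with DHT.

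The promoters of SCD and FADS1 are shown because these genes had the largest fall and the largest rise with SLIRP siRNA. Each run is the 250 bases before the start of the gene on its own strand (RefSeq, GRCh38.p14, a later build than the hg19 of the counts). The RefSeq starts can differ from those of the GENCODE spans given here, so a window may lie inside such a span. In GENCODE the starts of FADS1 and FADS2 are 36.3 kb apart, while the RefSeq window of FADS2, 61815953 to 61816202, lies close to that of FADS1. Capitals mark CCAAT (or ATTGG, the same letters on the other strand), GGGCGG (or CCGCCC) and CACGTG, where neighbouring words may share bases.
SCD (chr10:100346983-100347232, plus strand): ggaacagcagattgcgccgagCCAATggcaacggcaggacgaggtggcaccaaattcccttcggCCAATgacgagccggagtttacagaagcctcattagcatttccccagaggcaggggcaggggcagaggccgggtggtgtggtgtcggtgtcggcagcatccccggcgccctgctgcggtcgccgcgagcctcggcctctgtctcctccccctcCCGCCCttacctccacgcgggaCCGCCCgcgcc
FADS1 (chr11:61817004-61817253, minus strand): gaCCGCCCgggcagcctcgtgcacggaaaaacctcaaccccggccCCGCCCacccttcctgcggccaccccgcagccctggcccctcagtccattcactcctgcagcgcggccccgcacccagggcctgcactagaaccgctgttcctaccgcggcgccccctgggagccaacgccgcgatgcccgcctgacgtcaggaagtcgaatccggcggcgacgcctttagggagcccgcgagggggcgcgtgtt
The window of SCD held 2 CCAAT words and 2 GGGCGG words, and that of FADS1 held 2 GGGCGG words and no CCAAT word. A promoter was matched by symbol for 9 of the 10 members, without FASN. Of these 9 windows, 4 held CCAAT, 7 held GGGCGG and 1 held CACGTG, against 33.0%, 42.3% and 6.49% of 27305 promoters of the same length.

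**Figure D3:**
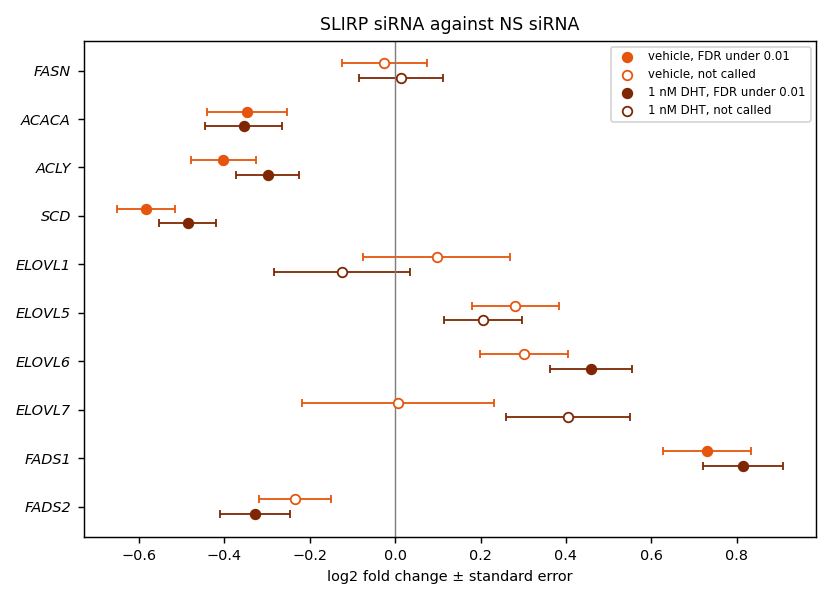
Log2 fold change with its standard error (horizontal axis) of each mRNA for SLIRP siRNA against NS siRNA, in vehicle and in 1 nM DHT, with filled points for an FDR under 0.01. SCD has the lowest value, -0.58 in vehicle, and FADS1 the highest, 0.82 in DHT, and FASN lies at 0 within its error.

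Among the elongases, ELOVL5 and ELOVL7 had the largest responses to DHT of the whole set. ELOVL5 (Entrez 60481, chromosome 6, 53132196 to 53213977), which lengthens polyunsaturated chains, was 349, 372, 363 and 345 CPM in NS-Veh and 729, 755, 617 and 593 CPM in NS-DHT. With SLIRP siRNA it was 407, 522, 395 and 423 CPM in vehicle and 843, 906, 709 and 666 CPM in DHT. The lowest DHT library was above the highest vehicle library under both siRNAs. The rise was 1.89-fold in NS cells, with a log2 fold change of 0.92 (SE 0.098, edgeR FDR 3.12e-08), and 1.79-fold in SLIRP cells, with 0.84 (SE 0.095, edgeR FDR 1.52e-07). ELOVL7 (Entrez 79993, chromosome 5, 60047618 to 60140101), an elongase of saturated very-long-chain fatty acids, was 19.8, 39.0, 21.0 and 19.9 CPM in NS-Veh and 71.7, 52.8, 56.2 and 66.0 CPM in NS-DHT. With SLIRP siRNA it was 19.96, 21.7, 25.4 and 26.1 CPM in vehicle and 73.8, 95.2, 81.9 and 76.6 CPM in DHT. Every DHT library was above every vehicle library, although NS-Veh replicate 2 stood apart from its group. The rise was 2.68-fold in NS cells, with a log2 fold change of 1.42 (SE 0.19, edgeR FDR 3.17e-06), and 3.53-fold in SLIRP cells, with 1.82 (SE 0.18, edgeR FDR 4.59e-09). ELOVL7 was the least expressed member, with 10 to 96 estimated counts per library, so its values carry the largest counting error of the set.

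The windows before ELOVL5 and ELOVL7 are shown because both genes rose with DHT under both siRNAs, with capitals as for SCD and FADS1.
ELOVL5 (chr6:53348951-53349200, minus strand): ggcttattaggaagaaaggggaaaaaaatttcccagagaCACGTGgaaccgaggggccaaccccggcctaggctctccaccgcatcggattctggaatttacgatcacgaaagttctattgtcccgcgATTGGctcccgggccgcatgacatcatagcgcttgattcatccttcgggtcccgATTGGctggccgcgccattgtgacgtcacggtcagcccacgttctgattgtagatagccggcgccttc
ELOVL7 (chr5:60844270-60844519, minus strand): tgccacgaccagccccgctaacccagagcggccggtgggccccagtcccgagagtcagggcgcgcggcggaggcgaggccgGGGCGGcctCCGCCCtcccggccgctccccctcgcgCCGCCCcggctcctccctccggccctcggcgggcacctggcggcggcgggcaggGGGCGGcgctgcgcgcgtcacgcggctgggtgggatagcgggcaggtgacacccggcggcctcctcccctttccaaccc
These windows differ in composition, with 56.0% G and C in ELOVL5 and 80.8% in ELOVL7. ELOVL5 held 1 CACGTG word and 2 CCAAT words and no GGGCGG word, while ELOVL7 held 4 GGGCGG words and none of the others. A form of the androgen response element was searched as AGAACA and TGTTC with NNN between, without the last base of the full palindrome. It was in 0 of the 9 windows and in 0.0146% of all promoters. Its 6-base part AGAACA was in 0 of the 9 and in 12.4% of all. A form of the sterol response element, ATCAC followed directly by CCCAC, was in 0 of the 9 and in 0.0366% of all. Variants of these elements were not searched. Words as rare as the androgen and sterol forms would seldom be met in 9 windows, so their 0 does not show that such elements are absent. Both strands were searched, and bases farther from the gene starts were not analysed here.

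**Figure D4:**
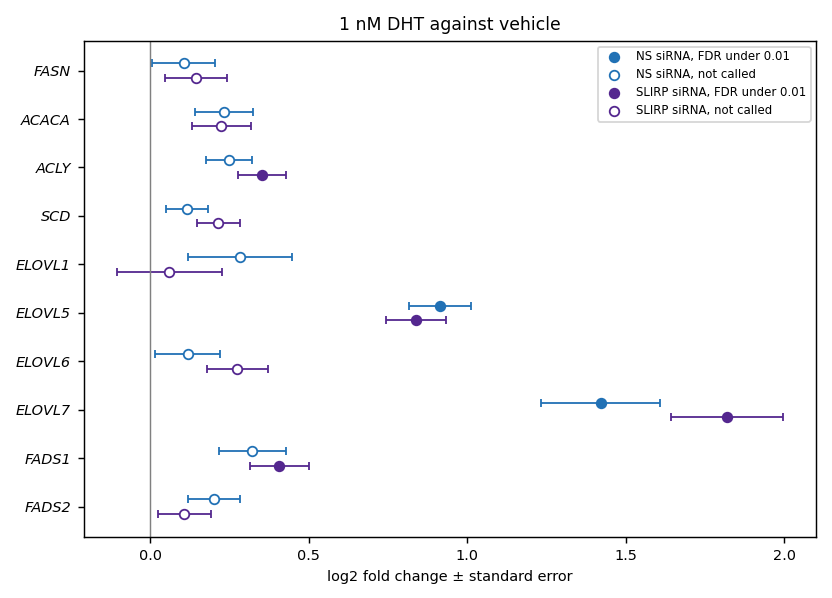
Log2 fold change with its standard error (horizontal axis) of each mRNA for 1 nM DHT against vehicle, with NS siRNA and with SLIRP siRNA, with filled points for an FDR under 0.01. All points lie above 0, as they do in the other analyses of all libraries except ELOVL1 with SLIRP siRNA in limma (-0.021), and ELOVL5 and ELOVL7 lie farthest to the right under both siRNAs.

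With SLIRP siRNA, ELOVL6 was called in DHT, and no elongase was called in vehicle. ELOVL5 changed by 0.28 (SE 0.10, edgeR FDR 0.0298) in vehicle, with separated libraries, and by 0.21 (SE 0.091, edgeR FDR 0.0749) in DHT, with overlapping libraries. Over the 8 against 8 libraries its FDR was 0.317 in a fit that pools vehicle and DHT, and 0.00284 with treatment as a covariate, at a log2 fold change of 0.24. ELOVL7 changed by 0.0068 (SE 0.22, edgeR FDR 0.988) in vehicle and by 0.41 (SE 0.15, edgeR FDR 0.0267) in DHT, where the libraries were separated. ELOVL6 (Entrez 79071, chromosome 4, 110967002 to 111120355), which lengthens palmitate and palmitoleate, was 143, 138, 147 and 150.5 CPM in NS-Veh and 164, 169, 188 and 199.97 CPM in SLIRP-Veh. In DHT it was 136, 155, 177 and 163 CPM with NS siRNA and 234, 228, 201 and 212 CPM with SLIRP siRNA. Its SLIRP libraries were above its NS libraries under each condition, by 0.30 (SE 0.10, edgeR FDR 0.0221) in vehicle and by 0.46 (SE 0.096, edgeR FDR 2.23e-04) in DHT. The call in DHT was lost with every library of replicate number 1 left out, at 0.37 (edgeR FDR 0.01). Within replicates 1 and 2 the change in DHT was 0.68 (edgeR FDR 1.39e-04). Within replicates 3 and 4 it was 0.29 (edgeR FDR 0.0577), which was not called. With DHT, ELOVL6 changed by 0.12 (SE 0.10, edgeR FDR 0.721) and 0.27 (SE 0.096, edgeR FDR 0.12) under NS and SLIRP siRNA. An antisense lncRNA shares 2.37% of the bases of its canonical transcript. ELOVL1 (Entrez 64834, chromosome 1, 43829069 to 43833745), an elongase of saturated chains, was between 46.5 and 87.8 CPM in all 16 libraries, all 4 groups overlapped, and it was not called in any comparison.

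The difference in DHT response between SLIRP and NS cells was tested as an interaction, which is also the difference in SLIRP response between DHT and vehicle. No member was called, with 0 of 10 at an unadjusted p under 0.05, and over the 10684 genes tested edgeR and DESeq2 both called 0, with 388 at an unadjusted p under 0.05 in edgeR. The largest difference was 0.40 in ELOVL7 (SE 0.27, 95% interval -0.13 to 0.93). Without NS-Veh replicate 2 it was 0.26, without the libraries of number 2 it was 0.10, and it was 0.95 with only replicates 1 and 2 and 0.054 with only replicates 3 and 4, with no call in any of these. It was -0.076 in ELOVL5 (95% interval -0.34 to 0.19), 0.085 in FADS1 (95% interval -0.19 to 0.36), 0.098 in SCD (95% interval -0.089 to 0.28) and 0.10 in ACLY (95% interval -0.10 to 0.31). The calls of ACLY and FADS1 with DHT in SLIRP cells and not in NS cells were therefore not shown to differ between the siRNAs.

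Other genes of fatty acid metabolism were read from 7 lists, with counts over the genes that passed the filter. With DHT in NS cells, 1 of the 81 list genes tested was called (1.23%), close to the 1.09% of all genes. This gene was ACSM3, a medium-chain acyl-CoA synthetase placed among the 8 acyl-CoA synthetases, at 0.92 (SE 0.18, edgeR FDR 0.00153). None of the tested genes was called among 10 of precursor supply, 9 other elongation and desaturation enzymes, 17 regulators, 11 of glycerolipid assembly, 24 of beta-oxidation and 6 of uptake and binding. With DHT in SLIRP cells, 3 of the 81 were called (3.7%), all higher, against 1.17% of all genes called in either direction and 0.636% called higher. These were IDH1, an NADPH-forming isocitrate dehydrogenase, at 0.52 (SE 0.091, edgeR FDR 4.15e-04), the enoyl-CoA isomerase PECI at 0.66 (SE 0.15, edgeR FDR 0.00749) and DBI, the acyl-CoA-binding protein, at 0.64 (SE 0.12, edgeR FDR 0.00105), named after their values were seen. Over the 8 SLIRP and 8 NS libraries, both directions were found, and of all genes tested 17.8% were called higher and 17.4% lower. Among regulators, 2 of 16 rose and 3 fell, with a median of 0.049. INSIG1, which holds SREBP in the endoplasmic reticulum when sterols are plentiful, rose by 0.68 (SE 0.068, edgeR FDR 1.36e-09), and MBTPS2, the protease that completes SREBP release, rose by 0.30 (SE 0.086, edgeR FDR 0.00481). NR1H2, the liver X receptor beta, changed by -0.79 (SE 0.17, edgeR FDR 3.09e-04) and MID1IP1, which promotes polymerization of acetyl-CoA carboxylase, by -0.35 (SE 0.090, edgeR FDR 0.00172).

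The list of other elongation and desaturation enzymes had 2 of 9 higher and 2 lower over the 16 libraries. The shares of all genes beside this and the next lists were 17.8% higher and 17.4% lower. CYB5B, a cytochrome b5 placed in this list, rose by 0.46 (SE 0.077, edgeR FDR 1.27e-05), and its part in these steps was not tested. PTPLB, a 3-hydroxyacyl-CoA dehydratase of the elongation cycle, rose by 0.46 (SE 0.13, edgeR FDR 0.00363). CYB5R3, which reduces cytochrome b5 for the desaturases, changed by -0.63 (SE 0.085, edgeR FDR 3.47e-07), and HSD17B12, the ketoacyl-CoA reductase of the cycle, by -0.32 (SE 0.082, edgeR FDR 0.00177). In precursor supply 0 of 10 were higher and 2 lower, AASDHPPT, which attaches the prosthetic group of FASN, at -0.59 (SE 0.12, edgeR FDR 2.48e-04) and ME1, an NADPH-forming malic enzyme, at -0.33 (SE 0.082, edgeR FDR 0.00119). Of the 4 acyl-CoA synthetases tested, 0 were called over the 16 libraries. Glycerolipid assembly had 2 of 11 higher and 2 lower, with AGPAT5, a lysophosphatidic acid acyltransferase, at 0.76 (SE 0.12, edgeR FDR 5.45e-06), and the phosphatidate phosphatases LPIN1 at 0.32 (SE 0.075, edgeR FDR 7.05e-04) and LPIN2 at -0.33 (SE 0.093, edgeR FDR 0.00381).

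Beta-oxidation, the route that breaks fatty acids down, had 4 of 24 genes higher and 7 lower with SLIRP siRNA, with a median of -0.049. Among all genes tested, 17.8% were called higher and 17.4% lower. CPT1A, which admits acyl chains to mitochondria and is held back by malonyl-CoA, rose by 0.41 (SE 0.061, edgeR FDR 2.15e-06), and HADH, a hydroxyacyl-CoA dehydrogenase, by 0.82 (SE 0.11, edgeR FDR 1.63e-07). PECI changed by -0.64 (SE 0.13, edgeR FDR 1.50e-04) and ACADM, the medium-chain acyl-CoA dehydrogenase, by -0.38 (SE 0.11, edgeR FDR 0.00462). In uptake and binding 2 of 6 were higher and 0 lower. Of these, SLC27A2, a very-long-chain acyl-CoA synthetase and transporter, rose by 0.78 (SE 0.15, edgeR FDR 8.26e-05). Over the 7 lists, 12 of 80 genes were higher and 16 lower with SLIRP siRNA, near the 35.2% of all genes called in this comparison.

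Over the 16 libraries, the genes whose log2 CPM most resembled ELOVL7, the member with the largest DHT response, were BRP44 (Pearson r = 0.90), ELOVL5 (0.90), MAPK6 (0.89), TAOK3 (0.89) and KCNMA1 (0.87), among the 2696 genes compared. Those most like FADS1, the member with the largest response to SLIRP siRNA, were SUDS3 (0.95), OSBPL8 (0.94), RCC2 (0.94), CCT2 (0.94) and MDM2 (0.94). These correlations describe 16 libraries that share 4 treatments. Within the set, ACACA and SCD (0.89), ELOVL6 and FADS1 (0.87), ACLY and SCD (0.86) and ACACA and ACLY (0.85) followed each other, and SCD and FADS1 had the lowest value (-0.68).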

How the data were processed

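RNA from 16 LNCaP libraries was sequenced by the authors as single 50-base reads and aligned to hg19. CASAVA and RSEM are named in the submitters' processing notes, and versions and annotation are not given in the sources used here. The deposited estimated counts are whole numbers per gene, with 29 of 20531 entries carrying only an Entrez number, which stayed in the tests. The deposited normalized table of 13148 genes is a score, the authors' counts divided by the upper quartile of each library and multiplied by a constant, and was used only with limma (pseudocount 1 or 0.1).

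Tests on the counts used edgeR 4.0.16 in R 4.3.3 (TMM, filterByExpr, quasi-likelihood test, Benjamini-Hochberg adjustment, FDR 0.01). SLIRP siRNA was compared with NS over 16 libraries without a covariate, as in the study, which used SAM. The other comparisons were contrasts of 1 model of 4 groups, so that their values can be set side by side. The models were tested on simulated data. Alternatives used DESeq2 1.42.0, limma 3.58.1, other scalings, filters, fits and left-out libraries. Members and lists were chosen with earlier results of these data known. All 10 members, SLIRP and KLK3 are named, with up to 4 called genes per list of mean count at least 30 (1 such gene is not reported here) and the 5 genes most correlated with 2 members. Same-numbered libraries correlated in their deviations from the group means at 0.0001 to 0.20, so replicate numbers were not taken as pairs. Coordinates and exons come from GENCODE on hg19. Seed matches of the siRNAs were not analysed here. Figures were drawn with matplotlib 3.10.9.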

Additional observations from a re-analysis of the deposited data

Results flagged for a closer look

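ELOVL7 in NS-Veh replicate 2 was 39.0 CPM, from 17 estimated counts, while the other 3 libraries of the group were between 19.8 and 21.0 CPM, so this library stood apart from its group. Of 40 sets of 4 libraries examined (10 members in 4 groups), 1 held such a library, where chance gives about 2. Without this library the log2 fold change of ELOVL7 with DHT in NS cells was 1.58 (SE 0.19, edgeR FDR 8.72e-07), against 1.42 with it.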

How the results depend on the processing

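Each result was recomputed under up to 34 alternatives, and no scaling moved the median of all genes by more than 0.1. The calls of SCD and FADS1 for SLIRP siRNA, over all libraries and in vehicle and DHT, and those of ELOVL5 for DHT under both siRNAs held in all 34. Same-numbered libraries did not all deviate together, and with the replicate number as a block the members called were 3 higher and 4 lower for SLIRP siRNA over all libraries, with ELOVL5 called at an edgeR FDR of 7.38e-05, and 1 higher and 4 lower in vehicle, with FADS2 called at an FDR of 0.00546. The block moved the genes called lower with DHT in SLIRP cells from 57 to 86, and changed no other call of a member. A term for replicates 1 and 2 against 3 and 4 and the separate use of these replicates were chosen after seeing the data. The term gave 55 genes lower with DHT in NS cells, and 106 higher and 95 lower in SLIRP cells, and called FADS2 in vehicle at an FDR of 0.00412. With only replicates 1 and 2, ELOVL7 with DHT in NS cells was 1.08 (edgeR FDR 0.0857), leaving 1 member called higher. With only replicates 3 and 4, 2 members were lower for SLIRP siRNA over all libraries and 1 was higher in DHT. ACACA over all libraries was -0.53 with only replicates 1 and 2 and -0.19 (edgeR FDR 0.0462) with only replicates 3 and 4.

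At an FDR of 0.05, SLIRP siRNA in vehicle gave 3 members higher and 1646 genes lower and in DHT 1858 genes lower, and DHT gave 153 genes higher and 81 lower in NS cells and 157 and 152 in SLIRP cells. Without the filter on low counts, DHT gave 131 and 60 in NS cells and 123 and 97 in SLIRP cells, and the interaction 5 higher and 6 lower. In limma on the normalized table (pseudocount 1, then 0.1, then a mean of at least 50), 792, 757 and 820 genes were higher for SLIRP siRNA in DHT, with 2 members lower under either pseudocount. With DHT in NS cells, limma called 15, 7 and 16 genes lower and, with a pseudocount of 0.1, 43 higher, where 86% of calls were higher against 71.6% in edgeR. With DHT in SLIRP cells it called 21, 17 and 20 genes higher and, with a pseudocount of 0.1, 31 lower, and 2 members were higher in limma, with upper-quartile scaling and with only the groups compared. The cause of these shifts was not tested.

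Leaving out 1 library, or the 4 libraries of 1 number, gave 2 to 4 members lower for SLIRP siRNA over all libraries. In vehicle it gave 815 to 1283 genes higher, in DHT 1 to 2 members higher, 2 to 4 lower and 782 to 1251 genes lower. With DHT it gave 37 to 83 genes higher and 10 to 42 lower in NS cells, and 27 to 73 higher, 19 to 52 lower and 2 to 4 members higher in SLIRP cells. The interaction had 0 to 1 gene higher. Over all libraries, ACACA was lost without number 1 (FDR 0.0165), ACLY without number 3 (FDR 0.0106) and FADS2 without number 2 or 3 (FDR 0.0127 and 0.0123), and ACLY in DHT was lost without number 3 (FDR 0.0448).

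Changes of sign were seen in values that were not called. FASN for SLIRP siRNA over all libraries was 0.0029 with RLE scaling and without a filter, 0.0096 in DESeq2, 0.0036 with at least 10 counts in every library, 0.028 with only replicates 3 and 4, and -0.049 to 0.045 with libraries left out. In vehicle FASN was 0.093 with only replicates 1 and 2 and -0.11 to 0.080 with libraries left out. In DHT it was -5.9e-05 with upper-quartile scaling, -0.051 in limma, -0.074 with only replicates 1 and 2 and -0.039 to 0.084 with libraries left out. Its DHT response in NS cells was -0.040 with only replicates 3 and 4, and its interaction -0.038 in limma, -0.17 with only replicates 1 and 2 and -0.052 to 0.15 with libraries left out. ELOVL1 for SLIRP siRNA was 0.072 over all libraries with only replicates 3 and 4 (-0.13 to 0.074 with libraries left out), -0.037 in vehicle with only replicates 1 and 2 (-0.049 to 0.19), and -0.34 to 0.028 in DHT. Its DHT response in SLIRP cells was -0.021 in limma and -0.21 with only replicates 1 and 2 (-0.16 to 0.16), and its interaction -0.47 to 0.0066. ELOVL7 for SLIRP siRNA was -0.017 over all libraries with only replicates 1 and 2. In vehicle it was -0.0072 with upper-quartile scaling, -0.0015 in DESeq2, -0.045 and -0.046 in limma, -0.0073 with only the groups compared, -0.0013 with the term for replicates, -0.47 with only replicates 1 and 2 and -0.15 to 0.17 with libraries left out. For the interaction, ACACA was 0.0099 with RLE scaling, 0.0087 in DESeq2, 0.00083 without a filter and 0.12 with only replicates 3 and 4 (-0.066 to 0.076), ELOVL6 was -0.081 with only replicates 3 and 4, and ELOVL5 was -0.16 to 0.028. ELOVL7 had 10 to 96 counts per library and ELOVL1 was the next lowest, and depth limits both most.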

Other observations

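FASN and FADS2 were lower in replicates 1 and 2 than in replicates 3 and 4 in all 4 groups. FASN was 1089 and 1008 CPM against 1444 and 1373 CPM in NS-Veh, and 1174 and 1263 CPM against 1422 and 1540 CPM in SLIRP-DHT. ELOVL5 had the opposite order in both DHT groups, with 729 and 755 CPM against 617 and 593 CPM in NS-DHT, and 843 and 906 CPM against 709 and 666 CPM in SLIRP-DHT. The replicate number has no stated link to the experiments of the study.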
